A study of Mus musculus with 59 samples.

Results

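The interleukin and interleukin receptor genes were followed through liver, bone marrow and spleen of mice given baclofen, a muscle relaxant that activates the GABA-B receptor, or its vehicle. A probe set of the array belonged to the group when the platform annotation gave it exactly 1 gene symbol and that symbol began with Il followed by a digit. Il7r and Il2rb were left out by the same rule. The rule gave 111 probe sets of 34945 with 1 symbol, which stand for 71 genes of 18193.

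All mice were of the hybrid strain B6C3F1, and the labels name no genetic change in any group. The groups were vehicle (0.5% methylcellulose) or baclofen, given as 1 dose or as 5 daily doses, with tissue taken 2 h after the last dose. The labels give neither the amount of baclofen nor the age of the mice. At 1 day, liver is represented by 3 vehicle and 4 baclofen samples, and bone marrow and spleen by 4 of each. At 5 days every tissue has 4 vehicle samples and 8 baclofen samples. The replicates are numbered without a statement that each is a separate animal, so a p-value speaks only of the spread among these samples, which may be technical. An array value is a brightness, or intensity, and precision is limited by how many arrays a group holds. Each comparison asks whether a transcript differed between baclofen and vehicle in 1 tissue after 1 or 5 doses.

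Interleukins are secreted proteins through which blood and tissue cells signal to each other. Those of the IL-1 family, such as IL-1 beta, bind receptors that signal through the adaptor MyD88, and are held in check by a receptor antagonist and by decoy receptors. Most of the others bind receptors built of a chain of their own and a chain shared with other cytokines, which signal through JAK kinases and STAT proteins. IL-15 is presented to natural killer cells and memory T cells by its own receptor alpha chain on neighbouring cells. IL-6 receptor alpha and its partner gp130 are both made by hepatocytes and drive the acute-phase response of the liver.

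Hepatocyte markers had a mean log2 intensity of 14.51 to 14.64 in every liver array and neutrophil markers one of 13.50 to 13.87 in every bone marrow array. At 5 days, 4 spleen libraries (vehicle replicates 1, 3 and 4 and baclofen replicate 5) held liver transcripts, with a hepatocyte marker mean of 6.25 to 9.49 where the remaining 16 had 4.85 to 5.65. Bone marrow baclofen 1 day replicate 3 held muscle transcripts, with a skeletal muscle marker mean of 10.06 where the remaining 19 had 6.58 to 8.10. Fits without such libraries left out 4 together (spleen vehicle replicates 1 and 3 and baclofen replicate 5 at 5 days, and the bone marrow one), or those 4 and spleen vehicle 5 day replicate 4, which makes 5. The labels contradict themselves for 5 of the 7 livers at 1 day: their source field gives the opposite treatment, and the groups follow the title and the treatment field. As a sign of RNA quality, the 3' control probe set of Gapdh exceeded the 5' one in spleen by 0.24 to 0.43 (log2) with vehicle and 0.29 to 0.45 with baclofen at 1 day. The 5-day spleen ranges were 0.29 to 0.37 with vehicle and 0.24 to 0.65 with baclofen, and in the other tissues the arrays lay between -0.12 and 0.21. The part of RNA quality in the spleen differences was not tested.

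A gene was tested in a tissue when its brightest probe set reached, on average over the arrays, the 40th percentile of that tissue's genes. Of the 71 genes, 26 passed this filter in liver and 33 in each of the other tissues, and 21 passed in all 3 tissues, 11 in exactly 2 and 7 in exactly 1. The other 32 passed in none. The T-cell and inflammatory cytokine genes Il2, Il4, Il5, Il6, Il10, Il13, Il17a, Il21, Il12b and Il23a were among the 32. Il6 lay between 7.33 and 27.3 on all 59 arrays, and Il10 between 10.5 and 38.2. The lowest mean that passed was 42.9 in liver, 79.5 in spleen and 83.6 in bone marrow, and the genes that did not pass were left out of the tests of that tissue, except in the alternatives with no brightness filter and with every probe set on its own.

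In all, 8 genes passed the test (limma, Benjamini-Hochberg adjusted p below 0.05 among the 10916 genes tested in that tissue) in at least 1 comparison of baclofen with vehicle, and they gave 14 calls. The ligand genes Il1b, Il1f9 and Il15 fell wherever they passed, in bone marrow and, for Il1b and Il15, in spleen. The receptor genes Il15ra, Il1r1 and Il10ra rose in spleen and Il6ra rose in liver. The ligand gene Il34 rose in bone marrow.

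After 1 dose, 0 of 26 tested genes passed in liver, where 2.67% of all tested genes passed in limma's test (1.58% higher and 1.09% lower). At an unadjusted p under 0.05 the count was 6 of 26 (23.1%), with 1 higher and 5 lower, beside 12.5% of all tested genes (6.27% higher and 6.22% lower). With the treatments of the source field 4 of these 6 (Il16, Il1b, Il1r1 and Il27ra) changed sign, and the differences of Il10rb and Il6st came to -0.05 and -0.0047. Fits with array weights or with only the groups compared gave 1 adjusted call each, beside 3.97% and 1.82% of all genes. In bone marrow 2 of 33 fell, and of all genes 4.25% fell and 3.11% rose, 7.36% together. In spleen 3 of 33 rose and 2 fell, and of all genes 7.64% rose and 7.91% fell, 15.5% together.

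After 5 doses, 1 of 26 rose in liver, where 10.6% of all genes passed (4.86% higher and 5.75% lower). In bone marrow 1 of 33 rose and 3 fell (10.1% of all genes, 6.15% higher and 3.93% lower), and in spleen 2 of 33 rose (4.43% of all genes, 3.05% higher and 1.38% lower). By adjusted p and with both directions together, the shares of the interleukin genes were near or below those of all tested genes. Taken by direction, the 3 of 33 that fell in bone marrow at 5 days were above the 3.93% of all genes. The 2 of 33 that rose in spleen were above the 3.05%, and both are small counts. At an unadjusted p under 0.05 the shares of members and all tested genes at 1 day were 33.3% and 24.1% in bone marrow. In spleen they were 18.2% and 32.0%. At 5 days they were 15.4% and 26.7% in liver, 39.4% and 26.4% in bone marrow, and 18.2% and 25.9% in spleen. In bone marrow 24.2% of members were lower and 9.09% higher at 1 day, beside 13.5% and 10.6% of all genes. The 5-day figures there were 30.3% and 9.09%, beside 12.8% and 13.6%. The median log2 difference over the tested members at 1 day was -0.06 for liver, -0.04 for bone marrow and 0.10 for spleen, beside -0.01, 0.00 and -0.03 over all genes. At 5 days it was -0.03, -0.02 and 0.07, beside -0.02, 0.00 and 0.00. Single arrays moved these counts, and the counts over all genes with them: without bone marrow baclofen 1 day replicate 3 the count there was 8 of 33 (Il15, Il16, Il17ra, Il18r1, Il18rap, Il1b, Il1f9 and Il21r), where 12.9% of all genes passed. Without liver vehicle 5 day replicate 4 it was 5 of 26, beside 14.2% of all genes. In spleen at 1 day it was 9 of 33 when vehicle replicate 3 was left out, 2 when vehicle replicate 1 was, and 3 when baclofen replicate 4 was, beside 27.9%, 9.21% and 9.18% of all genes. In bone marrow at 5 days it was 1 without vehicle replicate 3 (3.98% of all genes) and 2 without vehicle replicate 1 or 2 or baclofen replicate 1, 2, 5, 6 or 7 (2.24% to 8.2% of all genes).

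**Figure D1:**
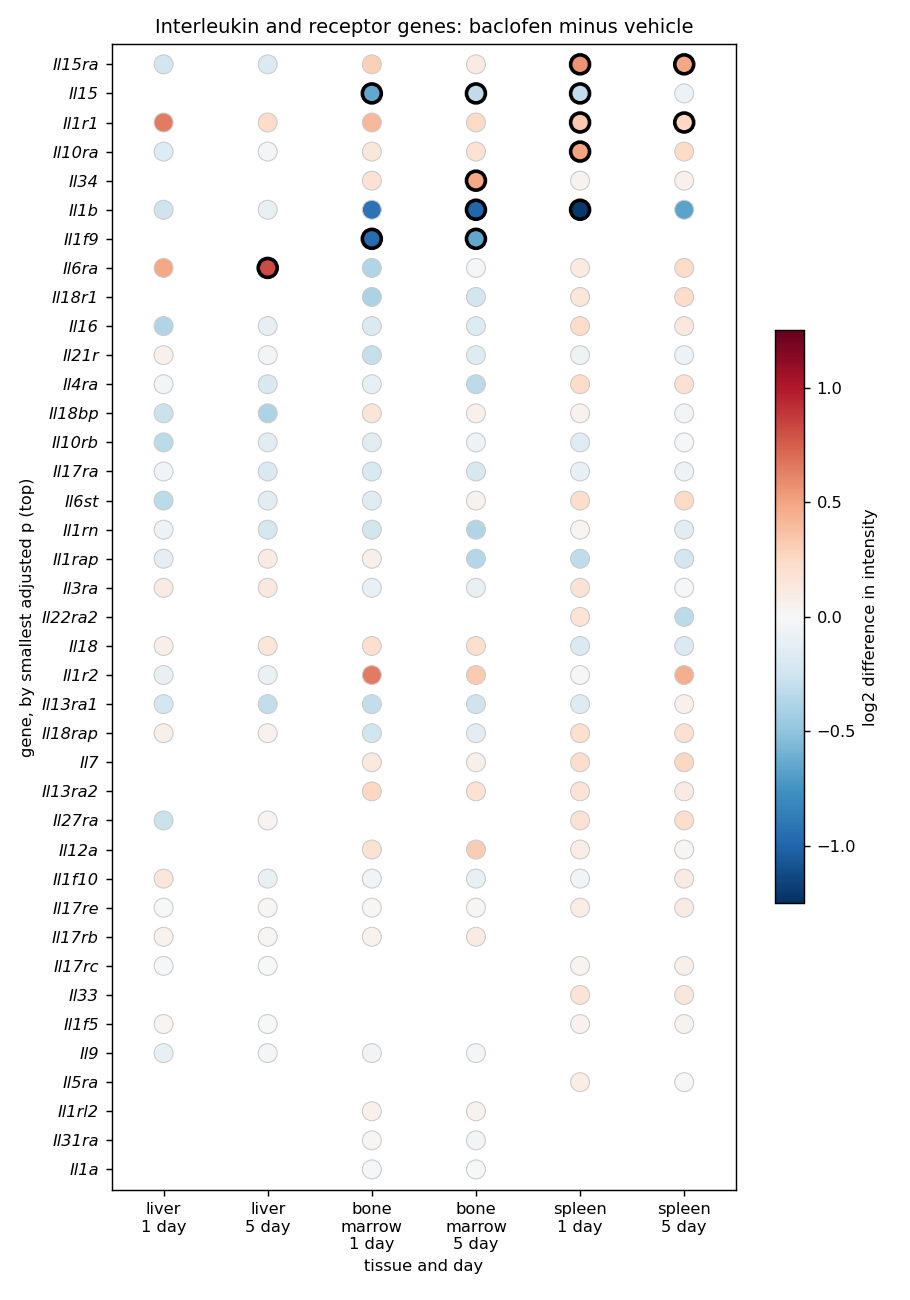
Each dot is a gene (vertical axis, ordered by its smallest adjusted p) in a tissue and at a day (horizontal axis), coloured by the log2 difference in intensity, baclofen minus vehicle; a black ring marks the 14 differences that passed limma's test, and a missing dot a gene too dim to be tested there. The ringed dots of Il1b, Il1f9 and Il15 are blue and those of Il15ra, Il1r1, Il10ra, Il34 and Il6ra are red.

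The stretches upstream of the start sites of 3 of these genes are shown because Il1b fell while its receptor gene Il1r1 and Il15ra rose in the same spleens. Each runs 5′ to 3′ over the 250 bases before a RefSeq start on GRCm38.p6, and capitals mark a match to a searched motif on either strand. Il1b lies on the minus strand (window chr2:129371140-129371389), Il15ra on the plus strand (chr2:11705462-11705711, the second of its starts) and Il1r1 on the plus strand at both starts (chr1:40224830-40225079 and chr1:40266336-40266585).
Il1b: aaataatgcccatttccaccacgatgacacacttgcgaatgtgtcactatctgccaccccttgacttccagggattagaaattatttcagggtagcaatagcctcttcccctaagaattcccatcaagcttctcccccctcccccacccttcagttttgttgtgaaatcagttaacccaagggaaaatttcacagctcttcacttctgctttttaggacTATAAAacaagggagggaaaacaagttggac
Il15ra, second start: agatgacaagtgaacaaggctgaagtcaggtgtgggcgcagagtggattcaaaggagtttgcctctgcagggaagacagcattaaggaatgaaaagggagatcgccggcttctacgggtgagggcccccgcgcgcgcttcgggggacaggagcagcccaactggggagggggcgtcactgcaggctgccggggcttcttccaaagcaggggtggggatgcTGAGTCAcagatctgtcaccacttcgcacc
Il1r1, first start: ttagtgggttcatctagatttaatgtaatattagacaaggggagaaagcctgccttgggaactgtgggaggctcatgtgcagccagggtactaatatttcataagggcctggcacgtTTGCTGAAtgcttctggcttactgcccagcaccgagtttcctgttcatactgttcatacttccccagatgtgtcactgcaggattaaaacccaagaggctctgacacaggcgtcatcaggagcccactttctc
Il1r1, second start: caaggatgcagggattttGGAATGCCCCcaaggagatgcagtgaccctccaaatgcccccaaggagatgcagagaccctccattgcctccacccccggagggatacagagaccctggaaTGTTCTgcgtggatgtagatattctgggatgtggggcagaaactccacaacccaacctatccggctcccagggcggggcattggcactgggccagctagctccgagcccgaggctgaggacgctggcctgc

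The capitals mark a TATA box (TATAAA) that begins 31 bases before the Il1b start and an AP-1 motif (TGANTCA) 30 bases before the second Il15ra start. In Il1r1 they mark a C/EBP motif (TTGCNNAA) 133 bases before the first start, and the NF-kB consensus 232 bases and a glucocorticoid receptor half-site (AGAACA, here as its reverse complement TGTTCT) 131 bases before the second. Of all 32851 RefSeq windows of this kind, 12.4% hold TATAAA, 6.75% TGANTCA, 9.56% TTGCNNAA, 7.25% the NF-kB consensus and 16.1% AGAACA. Of the 69 windows of 56 interleukin genes found in the table, 14.5%, 20.3%, 15.9%, 7.25% and 10.1% hold them. The full glucocorticoid receptor palindrome stands in 0 of the 69 and in 0.387% of all windows, and the cAMP response element (TGACGTCA) in 0 and 1.55%. The core of the interferon-stimulated response element stands in 1.45% and 2.98%. A match is a description of letters and shows no binding. The window of the first Il15ra start (chr2:11705043-11705292) and those for Il1f9 and Il6ra hold no match. None of the RefSeq windows at hand belonged to Il15, Il34 or Il10ra.

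Il1b (NCBI Gene 16176, chromosome 2, 129364569 to 129371164) encodes IL-1 beta, a cytokine of activated monocytes and neutrophils. In spleen at 1 day its intensity was 520.5, 503, 459 and 321 with vehicle and 182, 195, 162 and 238 with baclofen. Every baclofen array was below every vehicle array. Il1b fell 2.31-fold, by 1.21 ± 0.32 on the log2 scale (SE, 4 and 4 arrays, adjusted p = 0.017).

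At 5 days the spleen values were 287, 508, 531 and 221 with vehicle and 148 to 488 (median 230.3) with baclofen. The groups overlapped. The log2 difference was -0.66 ± 0.28 and did not pass (adjusted p = 0.143). Leaving out vehicle replicate 1 ended the 1-day call (adjusted p = 0.0512).

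In bone marrow at 1 day Il1b was 692, 827, 1012 and 672 with vehicle and 389, 357, 732 and 295 with baclofen. The one high baclofen value is that of replicate 3, the library with muscle transcripts. The difference of -0.92 ± 0.30 did not pass (adjusted p = 0.0662), and without that library Il1b fell by 1.20 (adjusted p = 0.0114). At 5 days the values were 456, 1185, 1236 and 467 with vehicle and 260.2 to 473 (median 381) with baclofen.

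Vehicle replicates 2 and 3 were high at 5 days, while replicates 1 and 4 lay inside the baclofen range, near its upper end. Il1b fell 1.99-fold at 5 days, by 0.99 ± 0.26 (SE, 4 vehicle and 8 baclofen arrays, adjusted p = 0.0236). It no longer passed without vehicle replicate 2 (adjusted p = 0.0811) or vehicle replicate 3 (adjusted p = 0.103), or with the replicate number as a block (0.157). Spleen vehicle replicates 2 and 3 at 5 days were likewise the higher ones of their group.

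In liver the intensity was 70.1, 66.2 and 73.2 with vehicle and 65.8, 59.9, 51.1 and 57.3 with baclofen at 1 day. The groups did not overlap, and the difference of -0.26 ± 0.10 did not pass (adjusted p = 0.27). At 5 days the groups overlapped, with a difference of -0.09 ± 0.08 (adjusted p = 0.537). Such levels are not compared across tissues beyond description, since array medians differ by tissue.

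**Figure D2:**
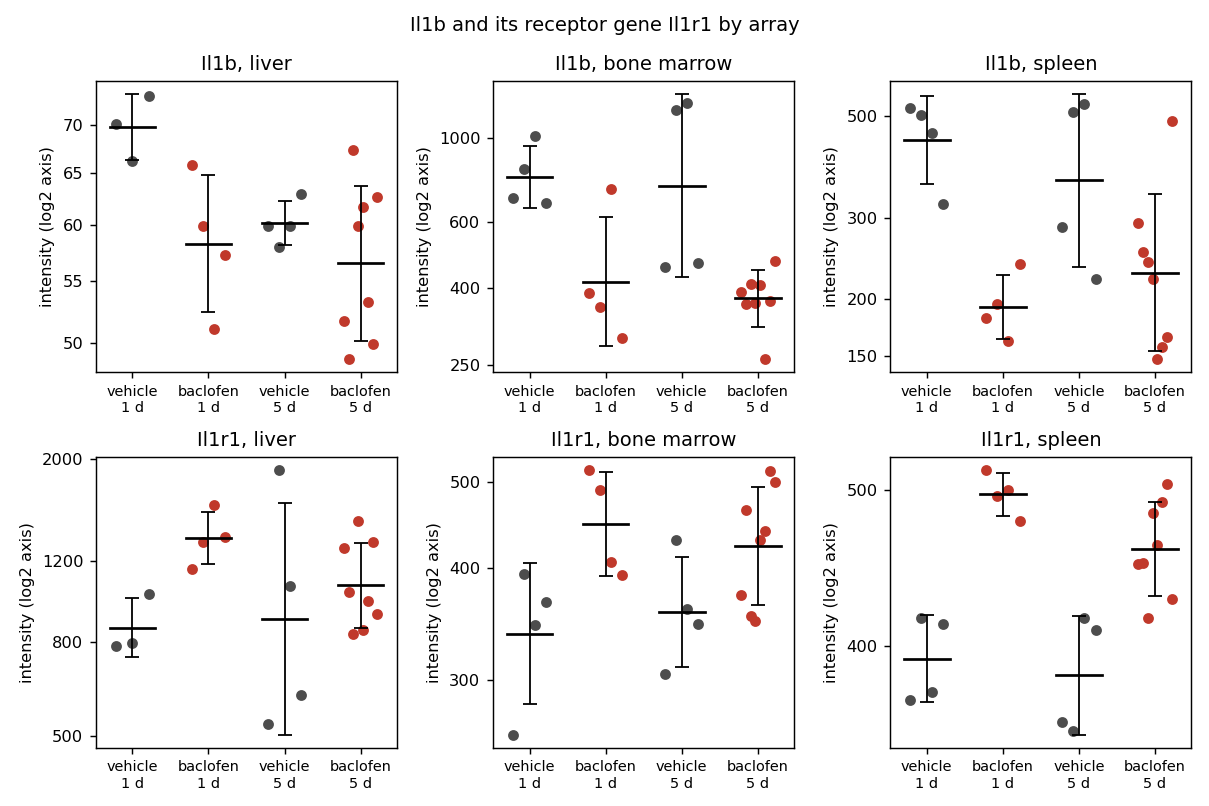
Points are single arrays of Il1b (top) and Il1r1 (bottom) in liver, bone marrow and spleen, grey for vehicle and red for baclofen at 1 and 5 days (d); the vertical axes show intensity on a log2 axis, and bars show the mean of the log2 values with its SD. In spleen at 1 day all 4 baclofen arrays lie below the vehicle arrays for Il1b and above them for Il1r1.

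Neutrophil markers moved with Il1b in spleen. The summed intensity of 8 neutrophil marker genes in spleen at 1 day ranged from 14671 to 45522 with vehicle and from 12792 to 15748 with baclofen. All 8 had a negative difference with a median of -1.13 (log2), and 2 passed the test: Mmp9, a granule protease, fell by 1.13 ± 0.30 (adjusted p = 0.0168) and Cxcr2, a chemokine receptor, fell by 0.73 ± 0.23 (adjusted p = 0.0385). None of the 8 was too dim to be tested. In whole tissue, fewer cells of a type and less RNA per cell cannot be told apart. The part of neutrophils in the fall of Il1b was not tested. Spleen vehicle 1 day replicate 3, with the lowest vehicle sum of 14671, had an Il1b intensity of 459, above all 4 baclofen arrays.

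At 5 days the neutrophil sum in spleen ranged from 16268 to 32628 with vehicle and from 7676 to 33858 with baclofen, and 0 of 8 markers passed (limma; 1 was lower at an unadjusted p under 0.05). In bone marrow the neutrophil sums overlapped at both days. They were 166229 to 173704 with vehicle and 156149 to 173361 with baclofen at 1 day, and 164581 to 177656 and 151967 to 171053 at 5 days. There 0 of 8 markers passed, with 2 and 3 lower at an unadjusted p under 0.05. Erythroid markers moved in bone marrow at 5 days: of 6 tested, 4 rose and 0 fell, with a median difference of 0.41, among them Epor, the erythropoietin receptor gene, by 0.53 ± 0.10 (adjusted p = 0.00519). Their summed level at 5 days was 28729 to 38616 with vehicle and 39540 to 50225 with baclofen, with no overlap, and their part in the 5-day bone marrow differences of Il1b, Il1f9, Il15 and Il34 was not tested. At 1 day 0 of the 6 passed (limma; 1 higher at an unadjusted p under 0.05), with overlapping sums of 34150 to 42781 and 35325 to 45094.

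Of 12 monocyte and macrophage markers, Ccr2, the chemokine receptor of inflammatory monocytes, fell by 1.04 ± 0.30 in spleen (adjusted p = 0.0238) and by 0.78 ± 0.18 in bone marrow (adjusted p = 0.0131) at 1 day. It was the only one of 10 tested that fell in either tissue at 1 day. The summed level of the 12 was 26354 to 30410 and 25682 to 27258 in spleen, and 42853 to 44816 and 37055 to 44104 in bone marrow, with vehicle and baclofen. Their mean log2 intensity, in which bright genes weigh no more than others, was 9.54 to 9.72 and 9.29 to 9.53 in spleen. In bone marrow it was 9.42 to 9.75 with vehicle and 9.66 to 9.94 with baclofen, so the list as a whole did not follow Ccr2 there.

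**Figure D3:**
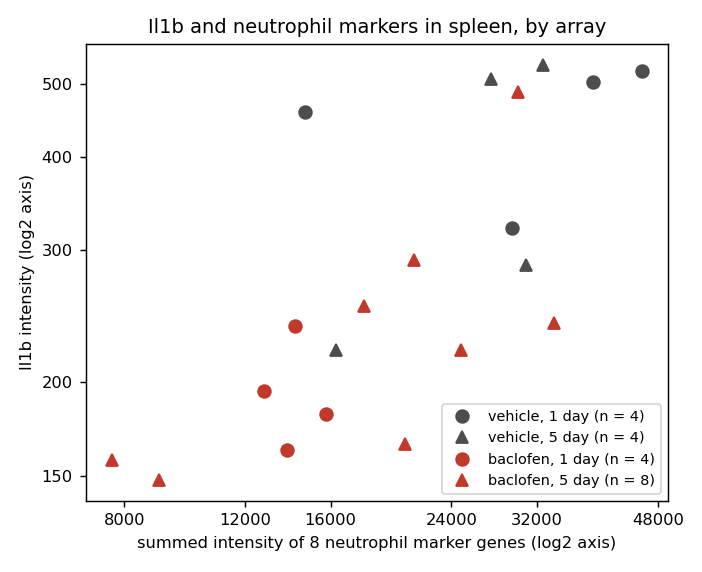
Each point is a spleen array, with the summed intensity of 8 neutrophil marker genes on the horizontal axis and Il1b intensity on the vertical axis (both log2 axes); grey is vehicle, red baclofen, circles 1 day and triangles 5 days. The 4 baclofen arrays at 1 day lie at sums of 12792 to 15748, and vehicle replicate 3 at 1 day lies at 14671 with a higher Il1b intensity.

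Il1f9 (NCBI Gene 215257, chromosome 2, 24186476 to 24193567) encodes IL-36 gamma, an IL-1 family cytokine. It was bright enough to be tested in bone marrow and in no other tissue. At 1 day it was 729, 1154, 1195 and 1037 with vehicle and 398, 489, 919 and 403 with baclofen, and at 5 days 869, 1047, 1095 and 909 and 427 to 814 (median 652). At 1 day the groups overlapped through baclofen replicate 3, the library with muscle transcripts, and at 5 days they did not overlap. Il1f9 fell 1.95-fold at 1 day, by 0.96 ± 0.24 (adjusted p = 0.0184), and 1.56-fold at 5 days, by 0.65 ± 0.20 (adjusted p = 0.0495).

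Both Il1f9 calls depended on single arrays and on the fit. With only the groups compared the 1-day call was lost (adjusted p = 0.0854), and the 5-day call was lost with no brightness filter (0.0678), with the mean of the probe sets (0.0541) and with eBayes using a trend and robust fit (0.0532). The replicate number as a block also ended the 5-day call (0.151). At 1 day Il1f9 did not pass without vehicle replicate 3 (adjusted p = 0.0616) or without baclofen replicate 1, 2 or 4 (adjusted p = 0.0809, 0.0507 and 0.0729). At 5 days it was lost without any one of the 4 vehicle arrays (replicates 1 to 4: 0.0968, 0.101, 0.131 and 0.0658) and without baclofen replicate 1, 2, 3, 5, 6 or 7 (0.0865, 0.0758, 0.0543, 0.0752, 0.0894 and 0.0644). Without the library with muscle transcripts Il1f9 was lower by 1.24 at 1 day (adjusted p = 0.000981).

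Of the other IL-1 family ligands, Il18, whose product is matured by caspase-1, differed by 0.21 ± 0.11 and 0.21 ± 0.10 in bone marrow at 1 and 5 days and by -0.18 ± 0.11 and -0.19 ± 0.10 in spleen. Its adjusted p lay between 0.175 and 0.268 there. Il33, an alarmin of stromal cells, was tested in spleen alone, with differences of 0.17 ± 0.17 and 0.15 ± 0.15. Il1a, which encodes IL-1 alpha, was tested in bone marrow alone and differed by -0.02 ± 0.11 and -0.01 ± 0.10.

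Il1r1 (NCBI Gene 16177, chromosome 1, 40222480 to 40316201) encodes the signalling receptor of IL-1. In spleen at 1 day its intensity was 370.1, 416, 374 and 413 with vehicle and 514, 496, 499.8 and 478 with baclofen, and the groups did not overlap. It rose 1.27-fold, by 0.34 ± 0.07 (adjusted p = 0.00413), and passed in every alternative in which it was tested, with a difference of 0.21 under the mean of its probe sets. At 5 days the values were 359, 354, 416 and 409 and 416 to 504 (median 456).

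The 5-day spleen groups met at one baclofen array of 416 beside a vehicle array of 416, and Il1r1 rose by 0.26 ± 0.06 (adjusted p = 0.022). The rise did not pass without vehicle replicate 1 (adjusted p = 0.0709) or 2 (0.105), with array weights (0.0512) or without the libraries with transcripts of another tissue. Without those libraries the difference was 0.27 (adjusted p = 0.0829 without 4) and 0.38 (0.0635 without 5), no smaller than before, on fewer arrays. With the mean of both Il1r1 probe sets it was 0.13 and did not pass (0.085). The replicate number as a block also ended the 5-day call (0.344). The second probe set, dim at a mean intensity of 9.17 in spleen, differed by 0.09 at 1 day (adjusted p = 0.416 among all probe sets) and -0.01 at 5 days (0.937).

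In bone marrow Il1r1 differed by 0.41 ± 0.14 at 1 day (adjusted p = 0.0914) and 0.25 ± 0.12 at 5 days (adjusted p = 0.217). In liver at 1 day it was 784, 794 and 1016 with vehicle and 1151, 1321, 1585 and 1349.6 with baclofen.

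The 1-day liver groups did not overlap, yet the difference of 0.65 ± 0.31 did not pass (adjusted p = 0.393). Vehicle livers at 5 days spanned 531, 1889, 1056 and 612, and of the 26 genes tested in liver Il1r1 had the largest residual SD, 0.44 on the log2 scale, beside a median of 0.135 over all genes. The accessory chain gene Il1rap was bright in liver, at 2710.1 to 3703, and its differences were -0.12 ± 0.08 and 0.10 ± 0.06 there. In spleen they were -0.32 ± 0.14 and -0.23 ± 0.12 and in bone marrow 0.07 ± 0.19 and -0.37 ± 0.16, and none of the 6 passed (adjusted p of 0.122 at the least).

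The IL-18 receptor gene Il18r1 in bone marrow at 1 day was 266, 281, 261 and 246 with vehicle and 158, 202, 262 and 193 with baclofen. The highest baclofen value is again that of the library with muscle transcripts. The difference of -0.39 ± 0.12 lay just short of the threshold (adjusted p = 0.0505), and without that library it was -0.52 (adjusted p = 0.00427). Its partner Il18rap differed by -0.24 ± 0.16 (adjusted p = 0.375).

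None of the inhibitor genes of the IL-1 family passed: 0 of 4 tested in liver, 0 of 3 in bone marrow and 0 of 4 in spleen at either day (limma), with 1 higher and 3 lower at an unadjusted p under 0.05 over the 6 comparisons. Of all tested genes 2.67% to 15.5% passed in these comparisons, and 12.5% to 32.0% had an unadjusted p under 0.05. Counts this small are not read as a result about the inhibitor genes. Il1rn, the receptor antagonist gene, in bone marrow at 5 days was 458, 1029, 836 and 702 with vehicle and 441 to 675 (median 549) with baclofen, an overlapping pair that differed by -0.38 ± 0.17 (adjusted p = 0.147). Il1r2, the decoy receptor gene, was 970.0, 2315, 1337 and 1396 with vehicle and 1886, 2276, 3521 and 1663 with baclofen in bone marrow at 1 day. The groups overlapped, and the difference was 0.65 ± 0.30 (adjusted p = 0.185).

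Il1r2 varied most between arrays of a group in spleen, with a residual SD of 0.58, beside 0.141 for the median of all genes, and Il1b came next with 0.49. In bone marrow the order was turned, with Il1b at 0.47 and Il1r2 at 0.46. Il18bp, which encodes the soluble IL-18 binding protein, in liver at 5 days was 204, 190.4, 140.4 and 136 with vehicle and 110.4 to 157 (median 125) with baclofen. Those groups overlapped, and the difference was -0.39 ± 0.14 (adjusted p = 0.0752).

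Il15 (NCBI Gene 16168, chromosome 8, 82331624 to 82403252) encodes the cytokine that maintains natural killer cells. In bone marrow at 1 day its intensity was 226, 271, 282 and 269 with vehicle and 149.6, 199, 174 and 148 with baclofen. The groups did not overlap, and the library with muscle transcripts, replicate 3, lay among the others. Il15 fell 1.57-fold, by 0.65 ± 0.10 (adjusted p = 0.00143), and passed in every alternative in which it was tested.

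At 5 days the bone marrow values were 280.3, 241, 286 and 264 with vehicle and 191 to 249 (median 209.5) with baclofen, and the groups overlapped. Il15 fell by 0.32 ± 0.09 (adjusted p = 0.0309). The fall did not pass without vehicle replicate 1 (adjusted p = 0.108) or 3 (0.0989) and without baclofen replicate 1, 2, 5, 6 or 7 (0.0549, 0.053, 0.0575, 0.0581 and 0.0512). Nor did it pass with the replicate number as a block (0.157).

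In spleen at 1 day Il15 was 127, 107, 106 and 103 with vehicle and 78.8, 95.1, 88.1 and 95.7 with baclofen, with no overlap. It fell 1.24-fold, by 0.31 ± 0.10 (adjusted p = 0.0382). The fall did not pass without vehicle replicate 1 (adjusted p = 0.13) or 2 (0.0633), without baclofen replicate 1, 3 or 4 (0.129, 0.0668 and 0.0507), without the brightness filter (0.0551), and with only the groups compared (0.0823). Nor did it pass with the replicate number as a block (0.142). At 5 days in spleen the difference was -0.07 ± 0.09 (adjusted p = 0.594), and in liver Il15 was too dim to be tested.

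Il15ra (NCBI Gene 16169, chromosome 2, 11705172 to 11733985) encodes the receptor alpha chain that presents IL-15. In spleen it was 105, 145, 132 and 128 with vehicle and 187, 189, 206 and 165 with baclofen at 1 day, and 142, 131, 135 and 131 and 173 to 204 (median 183) at 5 days. Every baclofen array was above every vehicle array of its day. Il15ra rose 1.47-fold at 1 day, by 0.56 ± 0.09 (adjusted p = 0.000631), and 1.4-fold at 5 days, by 0.48 ± 0.08 (adjusted p = 0.00141).

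The 1-day rise of Il15ra passed in every alternative in which it was tested. The 5-day rise did not pass with the replicate number as a block (adjusted p = 0.109). It passed without any single array and without the 4 libraries with transcripts of another tissue. Without the 4 the difference was 0.54 (adjusted p = 0.0259). When spleen vehicle 5 day replicate 4 was left out as well, the difference was 0.53 and did not pass (adjusted p = 0.06), in a fit with 1 vehicle array in that group, assumed to vary like the other groups. In liver Il15ra was 409, 418 and 318 with vehicle and 281, 329, 363 and 316 with baclofen at 1 day, and it differed by -0.24 ± 0.17 (adjusted p = 0.671). In bone marrow it differed by 0.29 ± 0.12 at 1 day and 0.11 ± 0.10 at 5 days (adjusted p = 0.124 and 0.52).

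A second, dimmer probe set of Il15ra gave a difference of 0.24 in spleen at 1 day (adjusted p = 0.286) and 0.27 at 5 days (adjusted p = 0.191), of the same sign and not past the threshold. Markers of natural killer cells moved in the same spleens. Of 8 such markers, 4 fell at 1 day: Ncr1, an activating receptor, by 0.83 ± 0.13 (adjusted p = 0.000721), Klre1 by 0.59 ± 0.16, the granzyme gene Gzma by 0.57 ± 0.17 and Nkg7 by 0.30 ± 0.09. The summed level of the 8 was 3403 to 4136 with vehicle and 2784 to 3402 with baclofen, and all 8 were bright enough to be tested. At 5 days 0 of 8 passed (limma; 1 higher and 2 lower at an unadjusted p under 0.05). The part of natural killer cells in the differences of Il15 and Il15ra was not tested.

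**Figure D4:**
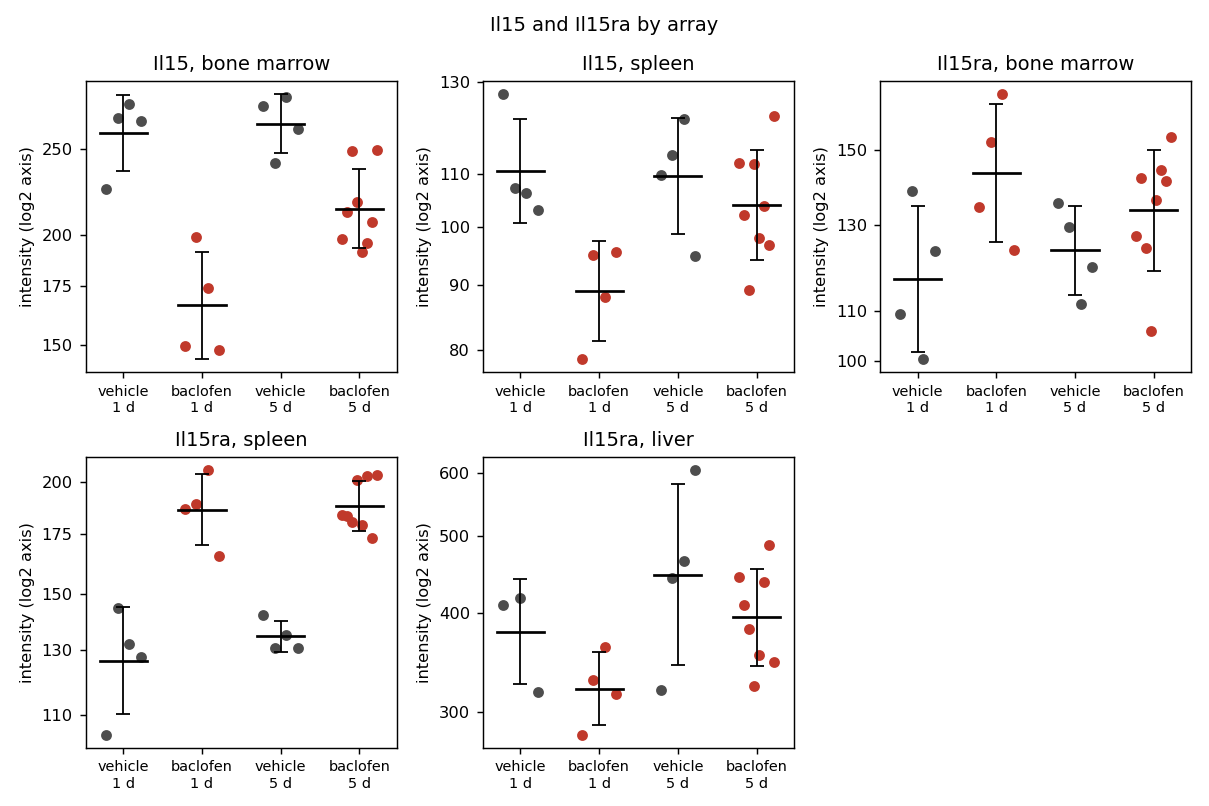
Points are single arrays of Il15 in bone marrow and spleen and of Il15ra in bone marrow, spleen and liver, grey for vehicle and red for baclofen at 1 and 5 days (d); the vertical axes show intensity on a log2 axis, and bars show the mean of the log2 values with its SD. The groups of Il15ra in spleen do not overlap at either day, and those of Il15 in bone marrow do not overlap at 1 day.

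The other receptor genes of this family passed in no comparison of baclofen with vehicle. Il4ra, which encodes the alpha chain shared by the IL-4 and IL-13 receptors, in bone marrow at 5 days was 383, 515, 376 and 303 with vehicle and 260.2 to 401 (median 293) with baclofen, an overlapping pair. The difference was -0.34 ± 0.12 (adjusted p = 0.0878), beside -0.20 ± 0.07 in liver (adjusted p = 0.059) and 0.20 ± 0.11 in spleen (adjusted p = 0.238). Il21r, the IL-21 receptor gene, differed by -0.30 ± 0.09 in bone marrow at 1 day (adjusted p = 0.0546). Il13ra1, the other chain of the IL-13 receptor, differed by -0.30 ± 0.20 in bone marrow at 1 day and -0.31 ± 0.16 in liver at 5 days (adjusted p = 0.379 and 0.232). The lymphoid survival factor gene Il7 differed by 0.22 ± 0.17 and 0.27 ± 0.15 in spleen (adjusted p = 0.373 and 0.238).

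Il6ra (NCBI Gene 16194, chromosome 3, 89869324 to 89913196) encodes the binding chain of the IL-6 receptor. In liver at 5 days its intensity was 118, 260.3, 232 and 276 with vehicle and 255 to 532 (median 369) with baclofen. The groups overlapped between 255 and 276, and vehicle replicate 1 was the lowest array at 118. Il6ra rose 1.75-fold, by 0.81 ± 0.23 (adjusted p = 0.0327).

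Il6ra did not pass without vehicle replicate 1 (a difference of 0.53, adjusted p = 0.129) or 3 (0.0692) and without baclofen replicate 3 (0.0573) or 6 (0.0558). It was also lost when the fit used only the groups compared (0.0561), array weights (0.056) or the replicate number as a block (0.188). A second probe set of Il6ra gave a difference of 0.50 in liver at 5 days (adjusted p = 0.014 among all probe sets). At 1 day in liver the values were 189, 215 and 331 with vehicle and 248, 361, 402 and 342 with baclofen.

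These 1-day liver groups overlapped, with a difference of 0.49 ± 0.29 (adjusted p = 0.562). In bone marrow the difference was -0.37 ± 0.17 at 1 day and -0.02 ± 0.15 at 5 days, and in spleen it was 0.12 ± 0.15 and 0.24 ± 0.13, with none past the threshold. Markers of monocytes and macrophages moved in the same livers at 5 days: of 11 tested, Mpeg1 (perforin-2) fell by 0.77 ± 0.19, Cd5l by 0.61 ± 0.19 and Lyz2 (lysozyme) by 0.54 ± 0.14. The summed level of 12 such markers was 4182 to 5761 with vehicle and 3004 to 4131 with baclofen, and their part in the differences of the liver genes was not tested.

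Il6st, which encodes gp130, the shared signalling chain of the IL-6 family, was 1058, 868 and 865 with vehicle and 704, 757, 755 and 716 with baclofen in liver at 1 day. The groups did not overlap, and the difference was -0.34 ± 0.10 (adjusted p = 0.104). In spleen it was 0.23 ± 0.12 at 1 day (adjusted p = 0.198). Il27ra, the IL-27 receptor gene, differed by -0.28 ± 0.11 in liver at 1 day and 0.19 ± 0.14 in spleen (adjusted p = 0.282 and 0.367). Il12a, which encodes the p35 subunit of IL-12, differed by 0.31 ± 0.19 in bone marrow at 5 days (adjusted p = 0.293).

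Il10ra (NCBI Gene 16154, chromosome 9, 45253837 to 45269149) encodes the binding chain of the receptor for IL-10, an anti-inflammatory cytokine. In spleen it was 269, 333, 449 and 364 with vehicle and 531, 464, 425 and 563 with baclofen at 1 day, and 402, 311, 388 and 390.0 and 404 to 518 (median 438) at 5 days. One baclofen array lay below the highest vehicle array at 1 day, and at 5 days the groups did not overlap. Il10ra rose 1.42-fold at 1 day, by 0.50 ± 0.13 (adjusted p = 0.0142), and the 5-day difference of 0.25 ± 0.11 did not pass (adjusted p = 0.167).

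The 1-day rise did not pass without vehicle replicate 1 (adjusted p = 0.0548) or baclofen replicate 4 (0.053), nor with only the groups compared (0.0868) or the replicate number as a block (0.0786). Of the 2 other probe sets of Il10ra, one gave a difference of 0.31 in spleen at 1 day (adjusted p = 0.0233 among all probe sets) and the other 0.29 (adjusted p = 0.0657). T cells are among the cells that carry this receptor. In the same spleens all 9 T cell markers had a positive difference at 1 day, with a median of 0.39. Cd28, a costimulatory receptor, rose by 0.66 ± 0.19 (adjusted p = 0.025). The summed level of the T cell markers overlapped, at 3984 to 8000 with vehicle and 6031 to 8171 with baclofen. That of 9 B cell markers overlapped as well, at 13175.9 to 27359.5 and 23162 to 25582. The part of these cells in the rise of Il10ra was not tested. Il10rb, the chain shared with the IL-22 receptor, in liver at 1 day was 187, 155 and 148 with vehicle and 118, 138, 116 and 144 with baclofen, with a difference of -0.34 ± 0.10 (adjusted p = 0.0872).

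Il34 (NCBI Gene 76527, chromosome 8, 110741829 to 110805949) encodes a ligand of the macrophage growth factor receptor CSF1R. In bone marrow at 5 days it was 79.2, 92.0, 87.6 and 88.7 with vehicle and 99.4 to 151 (median 118) with baclofen. The groups did not overlap. Il34 rose 1.39-fold, by 0.48 ± 0.12 (adjusted p = 0.0165), but did not pass without vehicle replicate 1 (adjusted p = 0.0699) or with the replicate number as a block (0.186). The erythroid markers, summed at 28729 to 38616 with vehicle and 39540 to 50225 with baclofen, were higher in the same marrows.

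At 1 day in bone marrow Il34 differed by 0.19 ± 0.13, and in spleen by 0.04 ± 0.09 and 0.06 ± 0.08. Its intensities are near the lowest mean that passed the filter, 83.6. Il16, which encodes a precursor of a chemoattractant for CD4-positive cells, in liver at 1 day was 51.3, 64.1 and 61.0 with vehicle and 44.9, 45.9, 43.2 and 46.6 with baclofen. The groups did not overlap, and the difference of -0.38 ± 0.10 lay just short of the threshold (adjusted p = 0.0545). The 3 dimmer Il16 probe sets in liver gave differences of -0.06, -0.22 and -0.04, with an adjusted p of at least 0.561.

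In spleen Il16 was 1096, 1547, 2067 and 1738 with vehicle and 1809, 1806, 1882 and 1921 with baclofen at 1 day, with a difference of 0.24 ± 0.13 (adjusted p = 0.199). The IL-17 receptor gene Il17ra in bone marrow was 1922, 1893, 1821 and 1817 with vehicle and 1422, 1618, 1959.9 and 1543 with baclofen at 1 day. Its difference was -0.20 ± 0.09 at 1 day (adjusted p = 0.189) and -0.21 ± 0.08 at 5 days (adjusted p = 0.0877). None of the IL-10 and IL-17 family ligands was bright enough to be tested in any tissue.

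**Figure D5:**
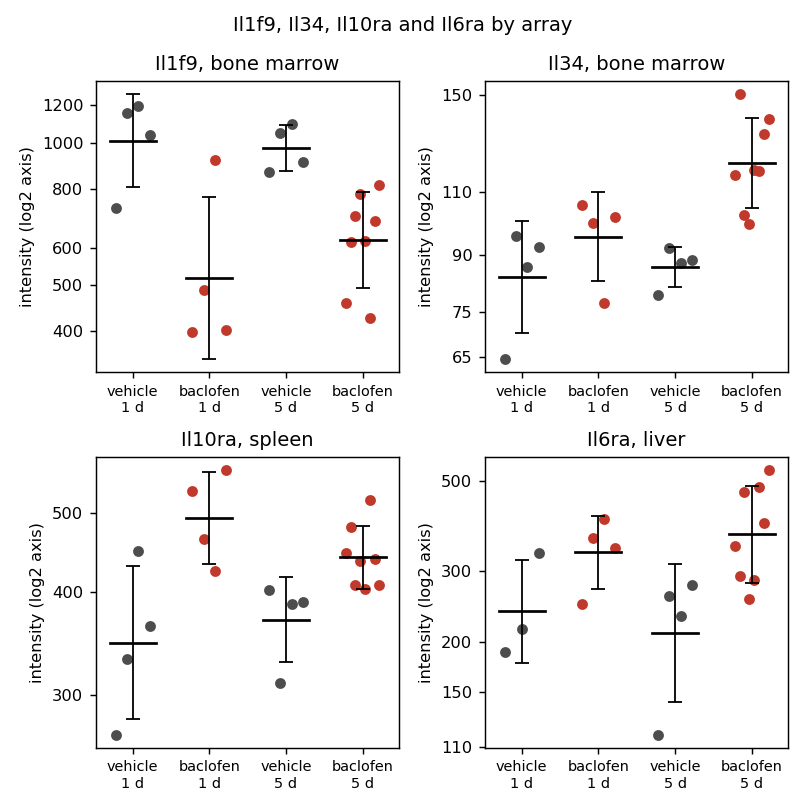
Points are single arrays of Il1f9 and Il34 in bone marrow, Il10ra in spleen and Il6ra in liver, grey for vehicle and red for baclofen at 1 and 5 days (d); the vertical axes show intensity on a log2 axis, and bars show the mean of the log2 values with its SD. The 5-day groups of Il1f9 and Il34 in bone marrow do not overlap, while those of Il6ra in liver do.

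The 31 genes that were tested in at least 1 tissue and passed in no comparison of baclofen with vehicle include those given above by value. Their log2 differences in liver ran from -0.38 (Il16) to 0.15 (Il1f10) at 1 day and from -0.39 (Il18bp) to 0.15 (Il18) at 5 days. In bone marrow they ran from -0.39 (Il18r1) to 0.65 (Il1r2) and from -0.38 (Il1rn) to 0.33 (Il1r2), and in spleen from -0.32 (Il1rap) to 0.24 (Il4ra) and from -0.33 (Il22ra2, a soluble decoy receptor of IL-22) to 0.45 (Il1r2).

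The change of the baclofen difference from 1 to 5 days passed for 0 of 26 interleukin genes in liver (0.0183% of all genes), 0 of 33 in bone marrow (0.0% of all genes) and 0 of 33 in spleen (0.0% of all genes) in limma's test. At an unadjusted p under 0.05 the counts were 2, 1 and 1, beside 9.62%, 5.12% and 7.86% of all genes. A call at 1 day and none at 5 days, as for Il1b, Il15 and Il10ra in spleen, is therefore not shown to differ between days.

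Differences of the baclofen effect between tissues passed for 6 genes. Between liver and spleen at 1 day 4 of 24 genes passed (6.53% of all genes): the effect was lower in liver than in spleen by 0.80 ± 0.19 for Il15ra (adjusted p = 0.00558), by 0.67 ± 0.17 for Il10ra (adjusted p = 0.00903), by 0.61 ± 0.15 for Il16 (adjusted p = 0.00903) and by 0.57 ± 0.18 for Il6st (adjusted p = 0.0411). At 5 days 1 of 24 passed (11.7% of all genes), Il15ra again, by 0.66 ± 0.16 (adjusted p = 0.00369). Without liver vehicle 5 day replicate 4 the 5-day count was 4 (13.2% of all genes), and without spleen vehicle 5 day replicate 3 it was 2 (12.2%). These fits use the treatment of the 1-day livers given by their titles, and under the source field Il15ra remained past the threshold while Il10ra, Il16 and Il6st did not (adjusted p = 0.24, 0.948 and 0.486), with differences of -0.32, 0.025 and -0.24. With only the groups compared these same 3 were lost (0.0841, 0.132 and 0.11), and with the mean of the probe sets the Il16 difference was -0.31 (0.0531). With the replicate number as a block Il15ra was lost at 1 and 5 days (0.0628 and 0.0848). Il10ra and Il6st were lost under that block at 1 day (0.0827 and 0.115).

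The Il6st difference was also lost with no brightness filter (0.0569) and without liver vehicle replicate 1 or 2 (0.143 and 0.053), liver baclofen replicate 1 or 4 (0.0671 and 0.0701), spleen vehicle replicate 1, 2 or 4 (0.13, 0.0877 and 0.0629) or spleen baclofen replicate 1, 3 or 4 (0.0877, 0.0521 and 0.0722), all at 1 day. Between liver and bone marrow at 5 days 1 of 23 passed (7.8% of all genes): the effect on Il6ra was higher in liver by 0.83 ± 0.26 (adjusted p = 0.04). The replicate number as a block ended this call (0.314). It was lost with no brightness filter (0.0578), with only the groups compared (0.0822) and without the 5 libraries with transcripts of another tissue (0.0503, with the same difference), and without liver vehicle replicate 1 or 3 (0.177 and 0.0519), liver baclofen replicate 3, 6 or 8 (0.0614, 0.0603 and 0.0638), bone marrow vehicle replicate 1 or 4 (0.15 and 0.0528) or bone marrow baclofen replicate 1, 6 or 7 (0.0625, 0.0592 and 0.0569).

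Between bone marrow and spleen at 5 days 1 of 26 passed (4.48% of all genes): the effect on Il4ra was lower in bone marrow by 0.54 ± 0.15 (adjusted p = 0.0284). It was lost without bone marrow vehicle replicate 1 or 2 (0.0679 and 0.0796) or spleen vehicle replicate 2 (0.145), and with only the groups compared (0.0538). With the mean of the Il4ra probe sets the difference was -0.29 and did not pass (0.105). Nor did the Il4ra difference pass with the replicate number as a block (0.211). At 1 day 0 of 23 passed between liver and bone marrow (2.27% of all genes; 4 at an unadjusted p under 0.05, beside 12.8% of all genes) and 0 of 26 between bone marrow and spleen (1.91% of all genes; 7 at an unadjusted p under 0.05, beside 21.0% of all genes). Without spleen vehicle 1 day replicate 3, 4 passed between bone marrow and spleen (Il10ra, Il16, Il18r1 and Il6st), beside 16.9% of all genes.

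Partner genes of these cytokines and receptors were read from a list of 45, of which 40 have a probe set. The list mixes signalling genes below the receptors with genes of IL-1 beta processing and with other cytokine receptor and ligand subunits. Its counts are therefore not counts of downstream signalling alone. In bone marrow 1 of 40 rose and 3 fell at 1 day, with a median difference of -0.09, beside 3.11% and 4.25% of all genes and a median of 0.00. Traf6, the ubiquitin ligase below MyD88, rose by 0.44 ± 0.10 (adjusted p = 0.0149), while the adaptor gene Myd88 fell by 0.48 ± 0.14 (adjusted p = 0.0434), Casp1, the protease that matures IL-1 beta, by 0.32 ± 0.08 (adjusted p = 0.0278) and Traf5 by 0.32 ± 0.08 (adjusted p = 0.0255). At 5 days 1 of 40 rose and 8 fell, with a median of -0.07, beside 6.15% and 3.93% of all genes and a median of 0.00.

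Among the 8 that fell in bone marrow at 5 days was Csf2rb, the shared beta chain gene of the IL-3, IL-5 and GM-CSF receptors, by 0.64 ± 0.16. Csf2rb2, a beta chain gene of the IL-3 receptor, fell by 0.53 ± 0.13. The kinase gene Jak3, which serves the common gamma chain, fell by 0.39 ± 0.10, and Pycard, the adaptor of the inflammasome, by 0.30 ± 0.08. Of the 5 tested genes of IL-1 beta processing, 1 fell in bone marrow at 1 day and 3 at 5 days, and the list's median was -0.13 and -0.28.

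In liver 1 of 32 tested partner genes fell at 1 day and 0 rose, beside 1.09% and 1.58% of all genes. Stat2, a mediator of interferon signalling, fell by 0.83 ± 0.16 (adjusted p = 0.00489). At 5 days 1 of 32 rose and 7 fell, with a median of -0.13, beside 4.86% and 5.75% of all genes and a median of -0.02. Stat5a fell by 0.56 ± 0.07 (adjusted p = 0.000143), Stat2 by 0.67 ± 0.13, Irak2, a kinase below the IL-1 receptor, by 0.50 ± 0.11 and Traf2 by 0.40 ± 0.08.

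In spleen 7 of 40 rose and 0 fell at 1 day, with a median of 0.11, beside 7.64% and 7.91% of all genes and a median of -0.03. Stat4, the mediator of IL-12 signalling, rose by 0.91 ± 0.15 (adjusted p = 0.000748), Traf6 by 0.44 ± 0.09, the TSLP receptor gene Crlf2 by 0.43 ± 0.09 and Sigirr, a negative regulator of IL-1 receptor signalling, by 0.36 ± 0.10. At 5 days 2 of 40 rose and 0 fell, beside 3.05% and 1.38% of all genes, namely the receptor chain gene Lifr by 0.46 ± 0.13 and the kinase gene Jak2 by 0.25 ± 0.06.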

How the data were processed

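RNA from 59 samples of 3 tissues was measured on 1-colour Affymetrix arrays. The deposited values are linear intensity values per probe set, normalized by the authors with RMA, and per the submitters' processing notes limma was also used (versions not stated there). The medians of the arrays are alike within a tissue and differ between tissues, so each tissue was fitted apart. Of 45101 probe sets, 34945 have exactly 1 gene symbol in the platform annotation, 932 have several and 9160 have none, and 64 are control probe sets, which were left out. A gene stood for by its brightest probe set in a tissue was tested when its mean reached the 40th percentile.

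From log2 of the intensity, limma 3.58.1 in R 4.3.3 (lmFit, eBayes) fitted all 4 groups of a tissue, which share 1 estimate of the spread, and p-values were adjusted by Benjamini-Hochberg over all genes tested, at a threshold of 0.05. For contrasts between tissues, 1 model held all 12 groups, on genes that passed the filter in both. It treated arrays of different tissues as independent, which would not hold if 1 mouse gave several tissues. The script was tested on simulated data. The interleukin genes, the partner and marker gene lists and the tests were chosen with earlier results of these data known. Genes named are those past the threshold in any comparison, a fixed list of IL-1, IL-6, IL-10, IL-15 and type 2 genes, in each role group with no call in a tissue up to 2 of the largest differences, and up to 4 partner genes a comparison. A few others (Il7, Il18rap, Il18r1 and the dim cytokine genes) were named after their values were seen. The groups come from the titles and treatment fields. No 2 arrays held identical values. Alternatives were other brightness filters, averaged probe sets, other normalizations, other fits and leaving out libraries, of which 2 (leaving out 5 libraries together, and every probe set on its own) were chosen after seeing the data. Promoter windows are from RefSeq.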

Additional observations from a re-analysis of the deposited data

Results flagged for a closer look

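Among 108 groups of 4 to 8 arrays of the named genes, 4 held an array far from the others, and chance flags about 1 in 20 groups. Il10ra in bone marrow baclofen 5 day replicate 6 had an intensity of 189.8, against 157 to 168 in the other arrays of its group. In spleen vehicle 5 day replicate 2 it had 311, against 388 to 402. Il16 in liver vehicle 5 day replicate 1 had 50.7, against 54.7 to 54.8. Il1b in bone marrow baclofen 5 day replicate 6 had 260.2, against 364 to 473.

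The baclofen effect differed between tissues in limma's test of the difference itself for 6 genes. In liver minus spleen at 1 day the difference of the log2 effects was -0.80 for Il15ra (adjusted p = 0.00558), -0.67 for Il10ra (adjusted p = 0.00903), -0.61 for Il16 (adjusted p = 0.00903) and -0.57 for Il6st (adjusted p = 0.0411). At 5 days it was -0.66 for Il15ra (adjusted p = 0.00369). In liver minus bone marrow at 5 days it was 0.83 for Il6ra (adjusted p = 0.04), and in bone marrow minus spleen at 5 days it was -0.54 for Il4ra (adjusted p = 0.0284).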

How the results depend on the processing

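The number of arrays and the brightness of a probe set limit these results. No call for baclofen against vehicle changed its direction under any alternative run, and the calls for Il15 in bone marrow and for Il15ra and Il1r1 in spleen, all at 1 day, passed wherever they were tested. Counts of interleukin genes called in liver at 1 day (0) were 1 with only the groups compared and 1 with array weights. In liver at 5 days (1) they were 2 with no brightness filter, 2 with the mean of the probe sets, 2 with every probe set on its own, and 0 with only the groups compared or with array weights. In bone marrow at 1 day (2) they were 1 with the filter at the 60th percentile, 1 with only the groups compared, 6 with array weights, 4 with every probe set on its own and 8 without 4 or 5 libraries with transcripts of another tissue. In bone marrow at 5 days (4) they were 2 with the 60th percentile and 9 with array weights. In spleen at 1 day (5) they were 3 with the 60th percentile and 3 with only the groups compared, and at 5 days (2) they were 1 with the 60th percentile, with the mean of the probe sets, with array weights and without the 4 libraries, and 0 without 5. For liver minus bone marrow at 1 day (0) they were 1 with no filter, 1 with the mean of the probe sets and 2 with every probe set on its own, and at 5 days (1) 2 with only the groups compared and 3 with array weights. For liver minus spleen at 1 day (4) they were 1 with the 60th percentile, 2 with the mean of the probe sets, 2 with only the groups compared and 2 with the source field's treatments. At 5 days (1) they were 2 with no filter, 0 with the 60th percentile, 2 with the mean, 3 with quantile normalization, 2 with only the groups compared, 2 without 5 libraries and 4 with every probe set on its own. For bone marrow minus spleen at 1 day (0) they were 3 with array weights and 2 without 4 or 5 libraries, and at 5 days (1) 2 with the mean, 3 with quantile normalization, 0 with only the groups compared, 3 with array weights and 2 without 5 libraries. The cause was not tested, beyond the fewer genes or samples that some alternatives use. Apart from the shares given above, the counts stand without the share of all genes under the same alternative. They are therefore not read as a result about the interleukin genes.

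Leaving out each array in turn gave counts of 0 to 1 and 0 to 5 in liver, 1 to 8 and 1 to 5 in bone marrow, and 2 to 9 and 1 to 2 in spleen, at 1 and 5 days. The counts over all genes moved as well. They were 136 to 306 and 584 to 1545 in liver, 303 to 1412 and 244 to 1674 in bone marrow, and 952 to 3050 and 136 to 758 in spleen. For the tissue differences the leave-outs gave 0 to 0 and 0 to 2 (liver minus bone marrow), 3 to 5 and 1 to 4 (liver minus spleen), and 0 to 4 and 0 to 3 (bone marrow minus spleen). Over all genes these were 146 to 272 and 496 to 889, 338 to 1235 and 603 to 1373, and 26 to 1722 and 80 to 1180. For the change from 1 to 5 days the count was 0 in each tissue, beside at most 6 over all genes.

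With the treatments of the source field, 4 of the 6 liver differences at 1 day with an unadjusted p under 0.05 changed sign, to 0.26 for Il16, 0.21 for Il1b, -0.32 for Il1r1 and 0.16 for Il27ra, and those of Il10rb and Il6st kept theirs at -0.05 and -0.0047, from -0.34 each (adjusted p = 1.00 for all 6). None of the 6 was called in either labelling, and the liver minus spleen difference of Il16 changed to 0.025 (adjusted p = 0.948).

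Within a tissue and day, the replicate numbers did not pair vehicle with baclofen arrays. Of 23 same-numbered pairs, 5 correlated above 0.1 in their deviations (range -0.46 to 0.27), and 4 of 23 correlated best with their own number. Whether same-numbered arrays of different tissues share a mouse was not checked. With the replicate number as a block, the counts were 0 in liver at 5 days, 0 in bone marrow at 5 days, 3 in spleen at 1 day and 0 at 5 days. They were 0 for liver minus bone marrow at 5 days, 1 and 0 for liver minus spleen at 1 and 5 days, and 0 for bone marrow minus spleen at 5 days. Baclofen replicates 5 to 8 at 5 days have no vehicle array of their number and add nothing to the differences in this fit. Its 5-day differences rest on 4 pairs of arrays in each tissue. The block counts stand without the share of all genes and are not read as a result about the interleukin genes.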
